A study of Rattus norvegicus with 20 samples.

Results

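The genes of voltage-gated calcium channels, voltage-gated sodium channels and hyperpolarisation-activated HCN channels were followed in central amygdala tissue of P rats, the alcohol-preferring line selected for drinking. They were taken by symbol from the array's annotation: each gene whose single symbol starts with Cacna, Cacnb, Cacng or Hcn and a digit, or with Scn, a number and the letter a or b. This gave 39 genes of the 14217 with a single symbol, measured by 55 probe sets, of which the probe set with the highest mean over all 20 arrays stood for its gene. The 39 genes comprised 10 calcium pore subunits (Cacna1), 2 alpha2delta subunits, 4 beta subunits, 8 gamma subunits, 9 sodium pore subunits, 3 sodium beta subunits and 3 HCN channels. Of them 23 had a mean above the 40th percentile of all probe sets (log2 7.14) and 16 lay under it, at the low end of the array's range. The 16 were Cacna1e, Cacna1f, Cacna1i, Cacna1s, Cacnb4, Cacng1, Cacng5, Cacng6, Cacng7, Cacng8, Scn4a, Scn7a, Scn8a, Scn10a, Hcn3 and Hcn4.

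The ethanol group was 10 P rats that could drink ethanol at 15% and 30% during adolescence, and the water group was 10 P rats given water alone. Both groups are the same selected line, and tissue from each rat went on an array of its own. The sources used here do not give sex, age in days or the amount drunk. All values are log2 signals made with RMA by the authors, so a difference of 1 is a doubling, and levels are compared between groups within a gene, not between genes.

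Voltage-gated calcium channels are built from a pore-forming alpha1 subunit, which sets the channel type, with beta and alpha2delta subunits that bring it to the membrane and tune its gating. In neurons they trigger transmitter release, shape bursting and carry signals to the nucleus. Sodium channels pair a pore subunit with beta subunits and start the action potential, and HCN channels open on hyperpolarisation and help set resting potential and rhythm. Most genes named as calcium channel gamma subunits encode TARPs, which are auxiliary subunits of AMPA-type glutamate receptors.

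The promoter windows of Scn2a, Cacna1c, Cacnb2 and Cacng3 are shown because these genes, all above the 40th percentile, had an unadjusted p under 0.05 and a window in the RefSeq table. The windows run from 250 bases before to 50 after a RefSeq start in GRCr8, written 5′ to 3′ on the gene's strand. Capitals mark a GC box (GGGCGG) or the left arm of RE1 (TTCAGCACC), the element that the repressor REST binds in many neuronal genes, each searched on both strands. For Cacnb2, which has windows at 2 starts, the upstream start is shown.
Scn2a (chr3:70710706-70711005, plus strand): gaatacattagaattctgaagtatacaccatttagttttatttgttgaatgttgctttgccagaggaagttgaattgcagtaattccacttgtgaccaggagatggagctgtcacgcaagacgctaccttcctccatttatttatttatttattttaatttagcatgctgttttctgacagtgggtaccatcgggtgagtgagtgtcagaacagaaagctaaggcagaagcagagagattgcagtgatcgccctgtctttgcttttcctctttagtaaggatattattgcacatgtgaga
Cacna1c (chr4:154051699-154051998, minus strand): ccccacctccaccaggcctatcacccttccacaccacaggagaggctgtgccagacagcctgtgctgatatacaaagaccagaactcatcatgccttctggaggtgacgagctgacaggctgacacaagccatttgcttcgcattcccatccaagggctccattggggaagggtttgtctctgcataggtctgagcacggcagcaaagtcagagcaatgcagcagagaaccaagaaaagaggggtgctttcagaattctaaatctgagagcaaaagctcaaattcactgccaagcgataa
Cacnb2 (chr17:82472965-82473264, plus strand): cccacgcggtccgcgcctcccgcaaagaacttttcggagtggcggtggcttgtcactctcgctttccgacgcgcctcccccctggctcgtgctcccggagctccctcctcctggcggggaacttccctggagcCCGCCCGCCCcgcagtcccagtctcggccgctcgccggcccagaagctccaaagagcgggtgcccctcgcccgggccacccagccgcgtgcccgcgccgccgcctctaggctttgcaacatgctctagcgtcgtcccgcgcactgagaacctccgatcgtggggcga
Cacng3 (chr1:186632312-186632611, plus strand): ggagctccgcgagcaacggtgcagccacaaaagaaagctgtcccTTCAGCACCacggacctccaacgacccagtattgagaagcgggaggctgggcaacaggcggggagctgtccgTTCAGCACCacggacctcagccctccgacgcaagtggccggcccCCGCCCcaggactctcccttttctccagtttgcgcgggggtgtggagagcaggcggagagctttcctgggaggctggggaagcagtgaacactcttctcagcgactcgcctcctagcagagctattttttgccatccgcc

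RefSeq windows were at hand for 27 of the 39 genes, 30 windows in all. The left arm of RE1 occurred in 1 of these 30 windows (3.33%) and in 0.356% of 33469 windows of the same length over all genes. That window is the one of Cacng3, where the letters stand at 2 places. The right arm of RE1 (GGACAG), not marked, occurred in 6 of the 30 windows (20%) and in 21.7% of all windows. A TATA box (TATAAA) lay in 6.67% against 14.2%, and the CRE (TGACGTCA) in 0 of 30 against 1.83%. A GC box lay in 16 of the 30 windows (53.3%), against 33.1% of all windows, and the median GC content was 62.3% against 51.7%. The windows of Scn2a (39.3% GC) and Cacna1c (51.7% GC) held neither motif. A match is a description of the letters and not a measured binding site.

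Ethanol and water animals were compared with limma over all 31042 non-control probe sets. Of the 39 channel genes, 28 had a higher mean with ethanol and 11 a lower mean, with a median difference of 0.12 on the log2 scale. None passed limma's adjusted threshold of 0.05, and 9 had an unadjusted p under 0.05 in limma. These 9, all higher with ethanol, were Scn2a, Cacna1c, Cacna1s, Cacnb2, Cacnb4, Cacng1, Cacng3, Cacng4 and Cacng8, which is 23.1% of the channel genes. Over all genes, by their highest-mean probe sets, 5.32% had an unadjusted p under 0.05 and a higher mean, 5.22% had one with a lower mean, 54.8% had a higher mean at all, and the median difference was 0.0087. Over all probe sets these shares were 5.8% higher and 4.67% lower. The channel family was chosen with earlier results of these data known, so its share is a description. In the same fit 3 of the 31042 probe sets (0.00966%) passed the adjusted threshold, and 0 of the 14217 representative probe sets did. Groups overlapped for each of the 39 genes, and the share of all genes with overlapping groups was not counted. In tissue samples fewer cells of a type and less RNA per cell cannot be told apart.

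**Figure D1:**
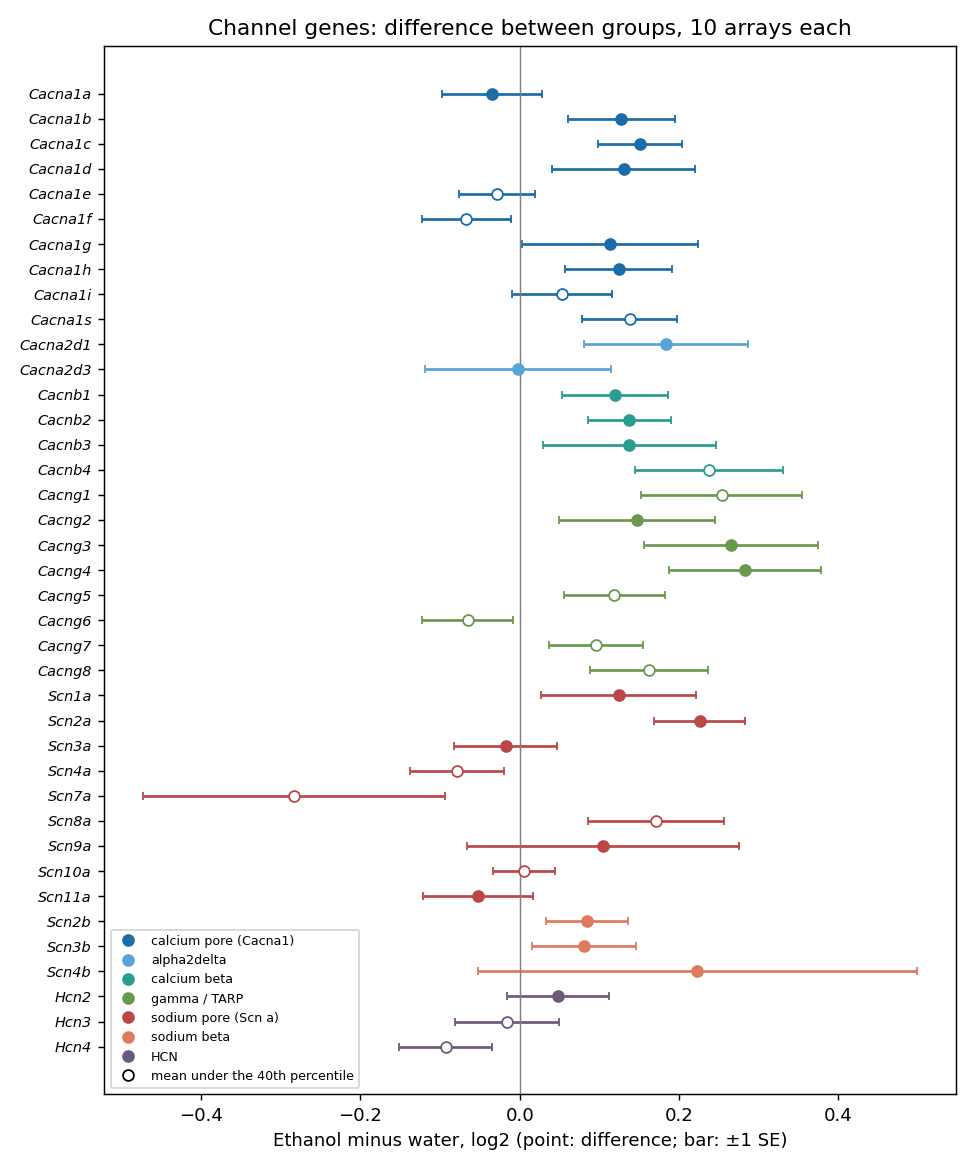
Difference of each channel gene between ethanol and water animals on the log2 scale, with 1 SE, ordered by subunit class; open symbols are genes whose mean lies under the 40th percentile. The calcium beta and gamma genes lie mostly right of 0 (11 of 12), and the HCN genes lie around 0 (0.048, -0.016 and -0.093). Of all genes 54.8% had a higher mean with ethanol.

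Scn2a, which encodes a sodium channel of the axon initial segment, had the smallest p of the channel genes. Its lowest, median and highest log2 values were 11.90, 12.01 and 12.12 in ethanol animals and 11.52, 11.82 and 12.06 in water animals. All 10 ethanol animals lay above the water mean, and 8 of 10 water animals lay below the lowest ethanol animal; water animals 20 and 19 reached into the ethanol range. The ethanol values were also the more closely spaced, with an SD of 0.073 against 0.16 (n = 10 per group). The difference was 0.23 (SE 0.057), or 1.17-fold, with a limma p of 0.000652 and a limma adjusted p of 0.247. Leaving out each animal in turn kept it between 0.20 and 0.26, with limma p-values up to 0.00152.

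The other 8 sodium pore genes had a limma p above 0.05. Scn8a, the sodium channel of nodes and initial segments in adult neurons, ran from 6.54 over a median of 6.94 to 7.16 in ethanol and from 6.52 over 6.67 to 7.07 in water animals. Its difference was 0.17 (SE 0.085, limma p = 0.0576), and its mean lay under the 40th percentile. Scn1a, the channel most tied to fast-spiking inhibitory neurons, stood at 11.56 ± 0.27 in ethanol and 11.43 ± 0.19 in water animals (mean ± SD, n = 10 each), a difference of 0.12 (SE 0.097). Scn3a, most used before birth, stood at 10.76 ± 0.10 and 10.77 ± 0.18 (difference -0.018, SE 0.065). Scn2a and Scn3a are direct neighbours in the genome, with 0 protein-coding genes between them in the RefSeq table. Their difference values, 0.23 and -0.018, were set side by side here, and the contrast between them was not tested.

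The sodium pore genes best known outside the brain had a limma p above 0.05. Scn9a, Scn10a and Scn11a, of peripheral sensory neurons, differed by 0.10 (SE 0.17), 0.0056 (SE 0.039) and -0.052 (SE 0.069). Scn4a, the channel of skeletal muscle, differed by -0.079 (SE 0.059) at a mean of 5.28.

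Scn7a encodes a sodium channel relative that senses extracellular sodium in glia and is not opened by voltage in the usual way. It had the lowest difference of the 39 genes, -0.28 (SE 0.19, limma p = 0.149), at a mean under the 40th percentile. In ethanol animals it ran from 5.17 over a median of 5.67 to 7.08, and in water animals from 5.52 over 6.04 to 6.71. The value of 7.08 came from ethanol animal 1, whereas the other ethanol animals lay between 5.17 and 5.94; without that animal the difference was -0.43. The oligodendrocyte and myelin score moved the same way (-0.36, with runs at -0.32, -0.75 and 0.37). With that score in the model the Scn7a difference was -0.0081 (SE 0.15), and the cause of this change was not tested.

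Sodium beta subunits, which anchor the channels and adjust their kinetics, were all slightly higher in mean with ethanol, as were 54.8% of all genes. Scn2b had values of 11.47, 11.66 and 11.73 (lowest, median, highest) in ethanol and 11.30, 11.54 and 11.83 in water animals, a difference of 0.085 (SE 0.052, limma p = 0.114). The other probe set of Scn2b gave 0.12 (SE 0.067) at a mean of 5.87. Scn3b differed by 0.080 (SE 0.065) in its brighter probe set and by 0.14 (SE 0.059, limma p = 0.0297) in the other.

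Scn4b, the beta subunit behind resurgent sodium current and abundant in striatal projection neurons, varied most between animals of all 39 genes. Its SD was 0.67 in ethanol and 0.68 in water animals, against a median SD over the channel genes of 0.16 in both groups. It ran from 8.05 to 9.76 in ethanol animals and from 7.63 to 9.80 in water animals, so the ranges nearly coincided. The difference of 0.22 (SE 0.28) became -0.11 (SE 0.15) when the striatal and cortical marker scores were added to the model. The cause of this change was not tested.

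Of the 10 calcium pore genes 7 had a higher mean with ethanol, and 2, both higher, had a limma p under 0.05. Of all genes 54.8% had a higher mean, and 5.32% were higher with such a p. Cacna1c encodes the main L-type channel of the brain, which couples electrical activity to gene expression. Its lowest, median and highest values were 8.88, 9.09 and 9.22 in ethanol and 8.63, 8.96 and 9.05 in water animals. Of the ethanol animals 7 lay above the highest water animal, and 3 water animals lay below the lowest ethanol animal. The difference was 0.15 (SE 0.053), 1.11-fold, with limma p = 0.00918. A further Cacna1c probe set, whose mean of 5.56 was low on the array, gave 0.019 (SE 0.058).

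Cacna1d, the other neuronal L-type channel, stood at 8.85 ± 0.24 in ethanol and 8.72 ± 0.18 in water animals (mean ± SD, n = 10 each), a difference of 0.13 (SE 0.0895). Its remaining probe sets, both under the 40th percentile, gave 0.031 and -0.0089. Cacna1s, the L-type channel of skeletal muscle, had values of 5.39, 5.48 and 5.74 in ethanol and 5.13, 5.42 and 5.59 in water animals. Its difference was 0.14 (SE 0.060, limma p = 0.0302) at a mean of 5.45, which is low on this array, and limma p reached 0.0659 when single animals were left out. The retinal Cacna1f differed by -0.067 (SE 0.056).

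Cacna1b, the N-type channel, and Cacna1a, the P/Q-type channel, trigger transmitter release. Cacna1b ran from 10.68 over a median of 10.86 to 11.05 in ethanol and from 10.39 over 10.82 to 10.89 in water animals. Of its ethanol animals 9 lay above the water mean, and the difference was 0.13 (SE 0.067, limma p = 0.0700). For Cacna1a the probe sets disagreed. The brightest of its 5 gave -0.035 (SE 0.063), while the others gave 0.16 (SE 0.082), 0.048 (SE 0.045), 0.20 (SE 0.073) and 0.14 (SE 0.079). The probe set at 0.20 had limma p = 0.0110 and, like those at 0.048 and 0.14, a mean under the 40th percentile. Cacna1e, the R-type channel, differed by -0.029 (SE 0.048).

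T-type channels open at low voltage and support rebound bursts. Cacna1h had values of 9.82, 10.08 and 10.23 in ethanol and 9.57, 10.02 and 10.13 in water animals, a difference of 0.12 (SE 0.067, limma p = 0.0790). Cacna1g differed by 0.11 (SE 0.11) and Cacna1i by 0.053 (SE 0.063). Ethanol animal 1 held the highest Cacna1g value, 8.78 against a median of 8.02 in its group.

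All 4 calcium beta genes had a higher mean with ethanol, where 54.8% of all genes did. Cacnb2 ran from 9.80 over a median of 9.94 to 10.14 in ethanol and from 9.54 over 9.83 to 9.93 in water animals, and 5 ethanol animals lay above the highest water animal. Its difference was 0.14 (SE 0.052, limma p = 0.0151). The remaining Cacnb2 probe sets gave 0.16 (SE 0.054, limma p = 0.00744) and 0.17 (SE 0.060, limma p = 0.0109), so all 3 probe sets of the gene had the same sign. The probe set at 0.17 had a mean of 6.01, under the 40th percentile. Cacnb4, the subunit whose loss causes ataxia and seizures in mice, had a mean under the 40th percentile (6.95), with values of 6.45, 7.12 and 7.40 in ethanol and 6.48, 6.91 and 7.02 in water animals. There 7 ethanol animals lay above every water animal, while ethanol animal 1 lay below them all, and the difference was 0.24 (SE 0.093, limma p = 0.0179).

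Cacnb1 ran from 8.91 over 9.17 to 9.43 in ethanol and from 8.83 over 9.09 to 9.21 in water animals, a difference of 0.12 (SE 0.067, limma p = 0.0844). Its fainter probe set gave 0.0997 (SE 0.050). Cacnb3 differed by 0.14 (SE 0.11), with water values spread from 8.001 to 9.13. Of the alpha2delta subunits, Cacna2d1, a binding site of gabapentin, had values of 10.26, 10.73 and 11.05 in ethanol and 10.18, 10.51 and 11.13 in water animals. Of its ethanol animals 9 lay above the water mean, but the highest animal of all was water animal 20, and the difference was 0.18 (SE 0.10, limma p = 0.0898). Cacna2d3 stood at 11.30 in both groups (difference -0.0022, SE 0.12).

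**Figure D2:**
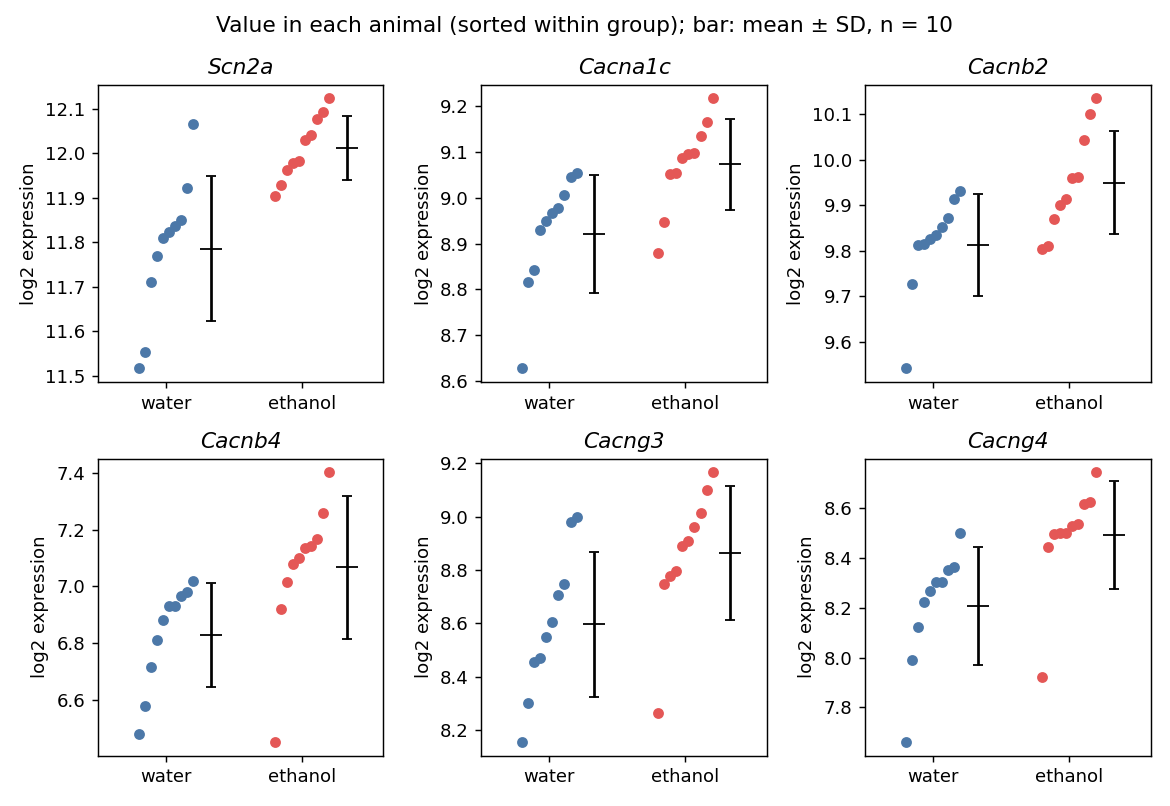
Log2 value of 6 channel genes in every animal, sorted within the water (blue) and ethanol (red) group, with mean ± SD beside each. Most ethanol animals sit above the middle of the water group, and a single low ethanol point, animal 1, stands away from the rest for Cacnb4 (6.45), Cacng3 (8.27) and Cacng4 (7.92).

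The 3 highest differences of the 39 genes were in the gamma family. Cacng4, a TARP, had the highest, 0.28 (SE 0.096), 1.22-fold, with limma p = 0.00727. It ran from 7.92 over a median of 8.51 to 8.74 in ethanol and from 7.66 over 8.28 to 8.498 in water animals, and 7 ethanol animals lay above the highest water animal. Cacng3, also a TARP and the gene whose window holds the left arm of RE1, had values of 8.27, 8.90 and 9.17 in ethanol and 8.16, 8.58 and 8.999 in water animals. Its difference was 0.27 (SE 0.11, limma p = 0.0236). Cacng8, a TARP with a mean under the 40th percentile, had values of 5.82, 6.21 and 6.27 against 5.70, 5.94 and 6.45, a difference of 0.16 (SE 0.074, limma p = 0.0397), and limma p reached 0.0842 when single animals were left out. The highest Cacng8 value belonged to water animal 20.

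Cacng1 encodes the gamma subunit of the skeletal muscle channel, and its mean of 5.77 was low on the array. It had values of 5.36, 5.91 and 6.39 in ethanol and 5.37, 5.61 and 5.91 in water animals, a difference of 0.25 (SE 0.10, limma p = 0.0201). Cacng5, an atypical TARP, ran from 5.57 over 5.90 to 6.04 and from 5.47 over 5.70 to 5.88, a difference of 0.12 (SE 0.063, limma p = 0.0749). Cacng1, Cacng4 and Cacng5 follow each other on the chromosome with 0 protein-coding genes between them in the RefSeq table, and their differences were 0.25, 0.28 and 0.12. A similar run of 3 genes, Cacng6, Cacng8 and Cacng7, gave -0.066 (SE 0.057), 0.16 and 0.096 (SE 0.060). Cacng2, known as stargazin, differed by 0.15 (SE 0.098) and by 0.041 (SE 0.0585) in its other probe set.

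The HCN genes showed small differences of mixed sign. Hcn4, the slowly gating form, had values of 5.79, 6.05 and 6.22 in ethanol and 5.93, 6.15 and 6.38 in water animals, a difference of -0.093 (SE 0.058, limma p = 0.126). Hcn2, the form most widely used in deep brain nuclei, differed by 0.048 (SE 0.064), and Hcn3 by -0.016 (SE 0.065).

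Of the 39 genes 11 had several probe sets and 28 had 1. In 9 of the 11 all probe sets of the gene had the same sign, and the exceptions were Cacna1a and Cacna1d. Among the 16 further probe sets 15 were higher in mean with ethanol, and 4, all higher, had a limma p under 0.05. Over all probe sets 55.2% were higher in mean, and 10.5% had such a p, 5.8% with a higher value. Of the 16 further probe sets 10 lay under the 40th percentile. Probe sets of a gene share their RNA sample and are no independent replicates.

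**Figure D3:**
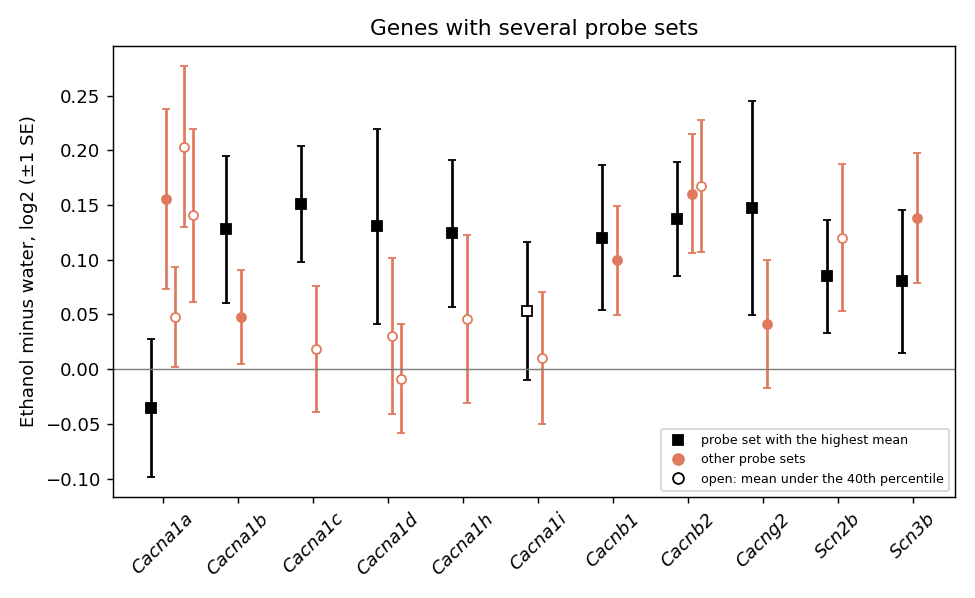
Log2 difference between ethanol and water animals for every probe set of the 11 genes with several, with 1 SE; squares are the brightest probe set, circles the others, open symbols lie under the 40th percentile. The Cacnb2 probe sets lie together at 0.14 to 0.17, while those of Cacna1a spread from -0.035 to 0.20.

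The order of the sample accessions falls into 3 runs, each with equal numbers of both groups (4, 4 and 2 per group), which no label calls a batch. In the first and the second run 32 and 27 of the 39 genes were higher in mean with ethanol, with median differences of 0.11 and 0.16. In the last run 17 were, and the median was -0.039. Over all genes the medians in the 3 runs were 0.012, 0.015 and -0.0095. The share of all genes that were higher in each run was not counted. The Scn2a difference was 0.31 and 0.28 in the first runs and -0.041 in the last, where water animal 20 had the highest Scn2a value of its group. Cacnb2 gave 0.15, 0.22 and -0.039 in the 3 runs, and the other 7 of the 9 genes with a p under 0.05 were positive in every run. Cacng4 was at 0.33, 0.31 and 0.14, and Cacna1c at 0.063, 0.26 and 0.10. With the run as a block limma gave a p under 0.05 to 11 channel genes, the same 9 with Cacng5 and Scn8a, and to 11.0% of all probe sets, 6.28% with a higher value.

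Single animals weighed on the family as a whole. The median over the 39 genes of a water animal's values minus the water mean ran from -0.21 to 0.13, the lowest in water animal 18, and that of the ethanol animals from -0.037 to 0.16, the lowest in ethanol animal 1. Water animal 18 was the array that correlated least with the others, at a mean r of 0.984. It had the lowest value of the water group for 16 channel genes, Scn2a, Cacna1c and Cacnb2 among them. It also had the highest myelin score (12.38), the highest choroid plexus and ependyma score (10.84) and the lowest pan-neuronal score (12.08) of all animals; the part of these in the channel values was not tested. Without it the Scn2a difference was 0.20 and the median difference 0.087. Without ethanol animal 1 the genes with a limma p under 0.05 numbered 14, of which 13 were higher and Scn7a lower; the share of all probe sets was then 12.5%, with 6.85% higher, against 10.5% and 5.8% with all animals. Leaving out any other animal gave 7 to 12, with a share of all probe sets from 8.26% to 12.7%. Scn2a, Cacna1c, Cacnb2, Cacnb4, Cacng1 and Cacng4 kept a limma p under 0.05 in all 20 such fits; Cacng3 lost it without water animal 18, Cacna1s in 5 of the fits and Cacng8 in 14.

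**Figure D4:**
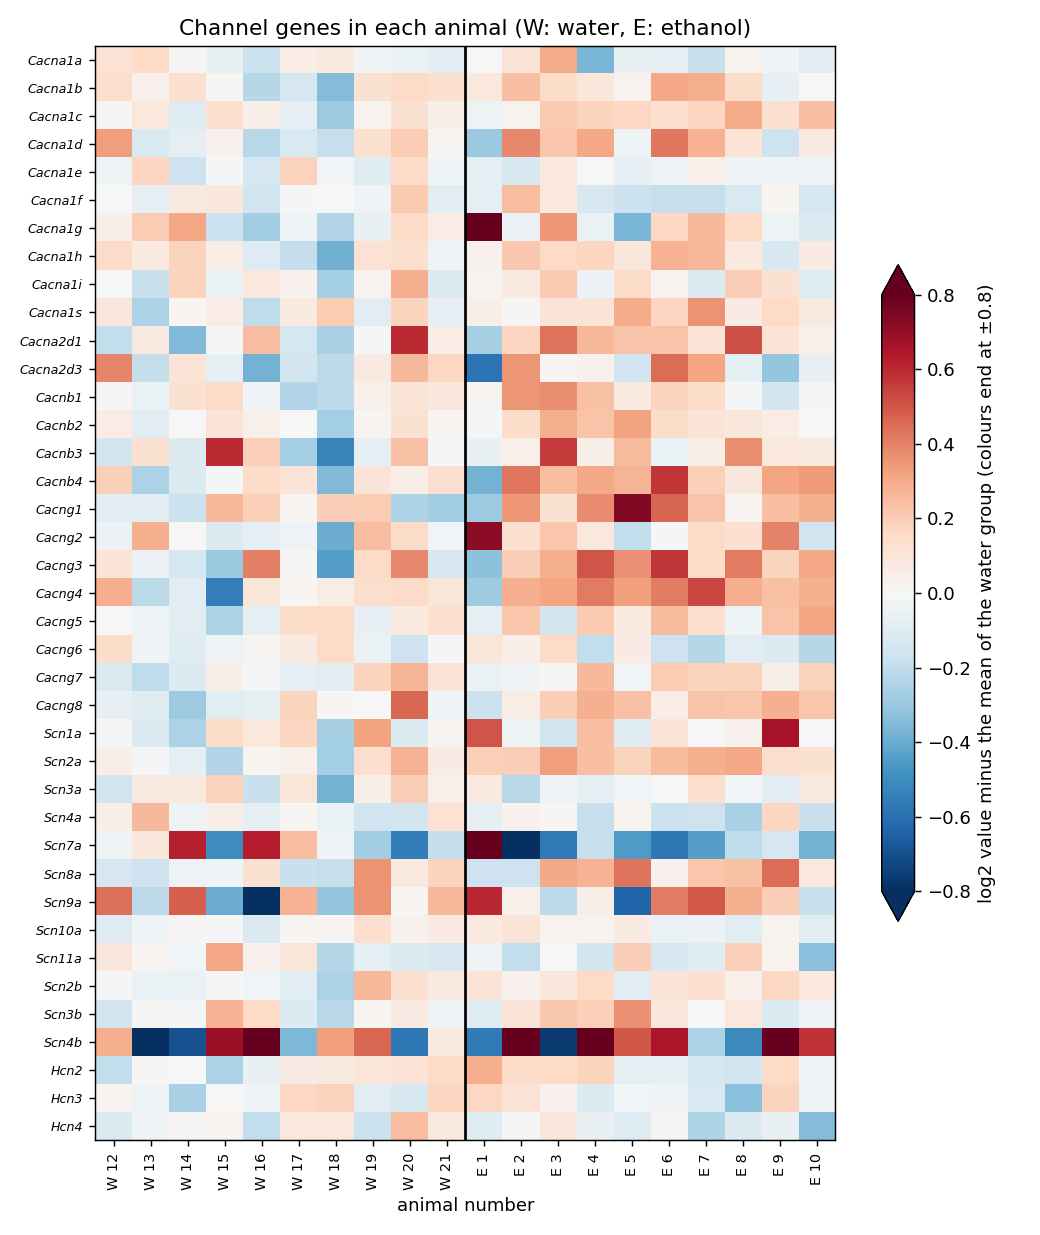
Log2 value of the 39 channel genes (rows) in each animal (columns; W water, E ethanol) minus the mean of the water group, with colours ending at 0.8 on each side. Water animal 18 has the lowest water value in 16 rows, ethanol animal 1 is blue for Cacnb4, Cacng3 and Cacng4 and red for Cacna1g and Scn7a, and Scn4b alternates within both groups.

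Marker levels of several cell types differed in mean between the groups. Of 18 measured markers of the central amygdala and its GABAergic cells, 17 lay above the 40th percentile, among them Gad1, Prkcd and Sst. So did 23 of 23 striatal markers, 14 of 16 cortical and basolateral markers and 10159 of all 14217 genes. These counts therefore do not set the central amygdala apart from its neighbours. Of the 18 markers 15 had a higher mean with ethanol, and 0 had a limma p under 0.05. Of 23 pan-neuronal markers 22 had a higher mean with ethanol and 7 (30.4%) a limma p under 0.05, all higher, where 54.8% of all genes had a higher mean and 5.32% were higher with such a p. Their mean level ran from 12.28 to 12.59 in ethanol and from 12.08 to 12.47 in water animals. All 21 oligodendrocyte and myelin markers had a lower mean, 8 (38.1%) with a limma p under 0.05 against 5.22% of all genes, and their level ran from 10.57 to 12.01 in ethanol and from 11.18 to 12.38 in water animals. The widest shift was in choroid plexus and ependyma markers, where all 11 had a lower mean, with a median difference of -1.08. Of them 3 (27.3%) had a limma p under 0.05, against 5.22% of all genes that were lower with one. Their level ran from 6.49 to 10.42 in ethanol and from 6.82 to 10.84 in water animals, and the score differed by -0.96, -1.01 and -0.95 in the 3 runs. Of 18 astrocyte markers 16 had a lower mean (median -0.063), and 3 (16.7%) were lower with a limma p under 0.05, against 5.22% of all genes. Of 23 striatal medium spiny neuron markers 22 had a higher mean (median 0.15), and 2 (8.70%) were higher with such a p. Of all genes 5.32% were higher with one, and 10.5% had one in either direction. No fit used the choroid or astrocyte score, so their part in the channel values was not tested. None of these lists had a gene past the adjusted limma threshold. The marker lists were chosen with earlier results of these data known, so their shares are a description. RMA values have no 0 here, the lowest in the table being 3.82.

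The channel genes were refitted with these scores. With the pan-neuronal score as a covariate the median difference of the 39 genes was 0.067, and 6 of them, all higher, had a limma p under 0.05. Of these, Scn2a and Cacng4 have a mean above the 40th percentile, and Cacna1s, Cacnb4, Cacng1 and Cacng5 lie under it. In that fit the median over all probe sets was 0.0094, and 6.92% had such a p, 3.75% with a higher value. With the myelin score it was 0.060, and 4 higher and 2 lower genes had one, the lower ones being Hcn4 (-0.14, SE 0.059) and Cacna1f (-0.12, SE 0.055). Both lower genes have a mean under the 40th percentile, as do Cacng1 and Cacng5 among the higher ones. Over all probe sets 10.4% had such a p in that fit, 5.73% with a higher value. Scn2a was at 0.16 (SE 0.056, limma p = 0.0114) with the neuronal and at 0.19 (SE 0.059, limma p = 0.00511) with the myelin score. Cacng4 was at 0.33 (SE 0.11) and 0.27 (SE 0.11), and Cacng1 at 0.38 (SE 0.10) and 0.24 (SE 0.11). Cacna1c went to 0.12 (limma p = 0.0535) and 0.10 (limma p = 0.0648), and Cacnb2 to 0.12 (limma p = 0.0573) and 0.068 (limma p = 0.141). With the myelin score Cacnb1 went from 0.12 to 0.014 and Cacnb3 from 0.14 to -0.0084. Scn2a, Cacng1 and Cacng4 had a limma p under 0.05 in each of these fits, in the fit with striatal and cortical scores and without the 3 arrays that correlate least with the rest.

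**Figure D5:**
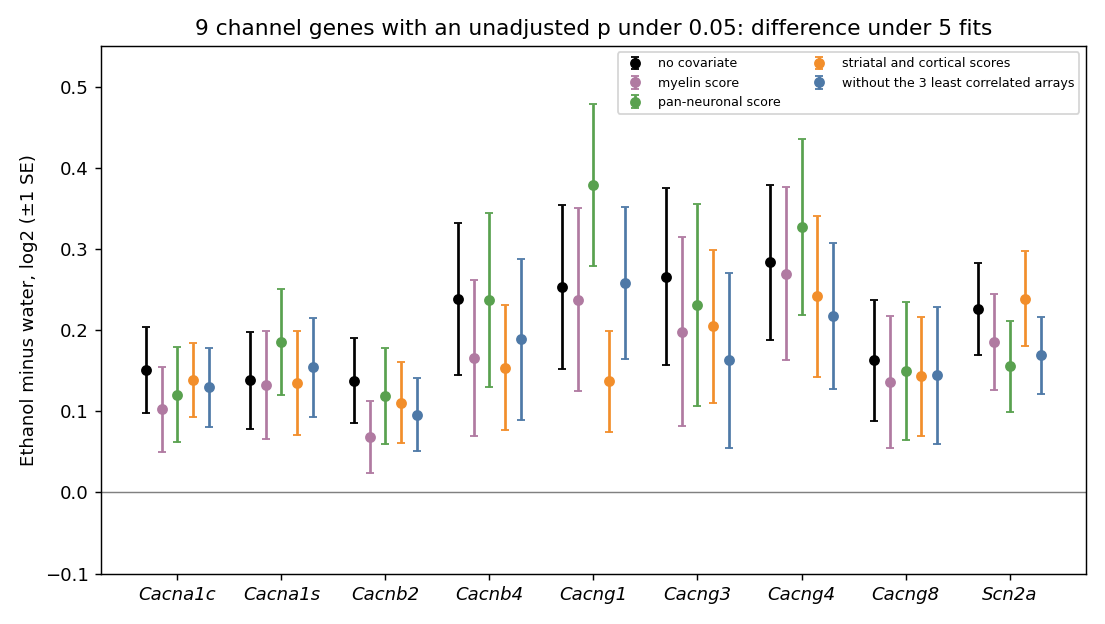
Log2 difference with 1 SE for the 9 channel genes with an unadjusted p under 0.05, in the fit without covariates, with 3 choices of marker score and without the 3 least correlated arrays. All values stay above 0; Cacnb2 ranges from 0.068 to 0.14, and Cacng1 from 0.14 with the striatal and cortical scores to 0.38 with the pan-neuronal score.

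Proteins that bind, place or modify these channels were read from a list of 50 genes, of which 45 were measured. The list also held Nalcn, Unc79 and Unc80, the genes of the sodium leak channel complex. That complex is a channel of its own outside the 39 genes, so these entries are counted with the list but are not partners in the same sense. Of the 45 measured genes 40 had a higher mean with ethanol, and the median difference of the 45 was 0.068. The count with a limma p under 0.05 was 10, 9 higher and 1 lower, or 20% higher against 5.32% of all genes. Unc80 and Nalcn were among the 9 higher genes. The list was chosen with earlier results of these data known, so this share describes the list and is no test of it. On the list 3 genes, Snap25, Syt1 and Vsnl1, are pan-neuronal markers as well. Unc80, a subunit of the sodium leak channel complex, stood at 11.97 ± 0.0603 in ethanol and 11.78 ± 0.124 in water animals (mean ± SD, n = 10 each), a difference of 0.19 (SE 0.047, limma p = 0.000415). Nalcn, the pore of the same complex, named with its values seen, differed by 0.12 (SE 0.058, limma p = 0.0476).

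Other listed genes with small p-values were the fusion protein Snap25, which binds release-site calcium channels, at 0.14 (SE 0.042) and the calcium sensor Vsnl1 at 0.14 (SE 0.046). The kinase anchor Akap6 was at 0.27 (SE 0.096), the calcium-binding channel regulator Cabp1 at 0.29 (SE 0.10) and the active zone protein Pclo at 0.18 (SE 0.071). The lower gene was Pex5l, named as the 1 partner in that direction, also called TRIP8b, which traffics HCN channels to dendrites, at -0.21 (SE 0.094, limma p = 0.0390), with -0.20, -0.40 and 0.17 in the 3 runs. With the pan-neuronal score as a covariate 4 genes of the list had a limma p under 0.05, and with the myelin score 6. Over all probe sets 6.92% and 10.4% had such a p in these fits. The pan-neuronal score contains Snap25, Syt1 and Vsnl1, so these genes were adjusted in part for their own values. None of the partners passed the adjusted threshold, with limma adjusted p-values from 0.230. In the potassium channel family, taken by the symbol start Kcn, 60 of 75 genes (80%) had a higher mean. The median difference was 0.059, and with a limma p under 0.05 10 genes (13.3%) were higher and 1 was lower. Of the 39 channel genes 71.8% had a higher mean, and 23.1% were higher with such a p. Of all genes 54.8% had a higher mean, and 5.32% were higher with such a p.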

How the data were processed

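Tissue from 20 rats was measured on Affymetrix rat 3' arrays, 1 array per animal; Trizol and RNeasy extraction preceded 3' IVT Express labelling, per the labels' protocols. The deposited values are log2 expression made by the authors with RMA, per the submitters' processing notes (the sources used here give no version). They were used as deposited: 31099 probe sets, of which 57 controls were left out, with array medians of 7.92 to 7.97 and array correlations of 0.977 to 0.997. The number of arrays, not a read depth, limits precision; the median SE was 0.063. Ethanol and water animals were compared with limma 3.58.1 (R 4.3.3; lmFit, eBayes, no covariate), adjusted over all 31042 probe sets after Benjamini and Hochberg; tables were made with Python 3.11.15. The script was tested on simulated data. Probe sets were named by the platform annotation, and all 39 symbols matched the RefSeq table. The members and lists were chosen with earlier results of these data known. Full values are given for the 14 genes with the smallest p and the gene with the smallest p in each of 7 subunit classes (17 genes together), and 6 partners by smallest p. Alternatives were 14 settings of filter, scaling, weights, covariates, run block and probe set choice, a threshold of 0.10, and leaving out each animal. No label names a batch.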

Additional observations from a re-analysis of the deposited data

Results flagged for a closer look

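In 78 checks (39 genes in 2 groups of 10) for an animal far from its group by Dixon's ratio, 7 values stood apart, and chance gives about 1 in 20. Ethanol animal 1 accounted for 5 of them. It was lowest for the beta subunit Cacnb4, at 6.45 with the next ethanol animal at 6.92, and for the TARPs Cacng3 (8.27, next 8.75), Cacng4 (7.92, next 8.44) and Cacng8 (5.82, next 6.05). For the sodium sensor Scn7a it was highest, at 7.08 with the next at 5.94. Not flagged was the TARP Cacng2, for which ethanol animal 1 was highest of all animals, at 10.15 with the next at 9.83. Without it the Cacng2 difference was 0.084 in place of 0.15. The same animal had the lowest striatal score of all animals (10.15) and the highest myelin score of the ethanol group (12.01). Its pan-neuronal score was 12.59, where the ethanol group ran from 12.28 to 12.59. The part of these scores in the values was not tested.

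Water animal 18 stood apart for Cacnb2, at 9.54 with the next water animal at 9.73. Ethanol animal 5 stood apart for Scn2b, at 11.47 with the next at 11.60.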

How the results depend on the processing

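No channel gene passed the adjusted limma threshold of 0.05 in any of the 14 settings or 20 fits without an animal, nor at 0.10, and the median difference stayed above 0, from 0.087 to 0.14 without single animals. The 9 channel genes with an unadjusted p under 0.05 became 5 with a filter at the 40th percentile and 4 at the 60th, where fewer genes were tested (23 and 16). Of all probe sets kept by these filters 12.8% (7.37% higher) and 13.4% (8.12% higher) had such a p. Without single animals the channel genes numbered 7 to 14, the 14 being without ethanol animal 1, and the share of all probe sets ran from 8.26% to 12.7%. With the ratio of 3' to 5' control signal as covariate 9 genes had one, 6 of them shared with the first 9. In that fit 11.7% of all probe sets had one, 6.47% with a higher value. The 10 genes of the partner list became 6 with the myelin score and 4 with the pan-neuronal score. The latter score contains Snap25, Syt1 and Vsnl1 of that list. Over all probe sets 10.4% and 6.92% had such a p in these fits, and the cause was not tested.

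Of 1287 gene values under alternatives 1244 kept their direction and 43, in 13 genes, reversed; the cause was not tested. With arrays centred, Cacna2d3 was at 0.0045. With array weights Cacna2d3 was at 0.0040 and Scn10a at -0.020. With the myelin score Cacnb3 was at -0.0084, Scn10a at -0.0067 and Hcn3 at 0.016. With the pan-neuronal score Cacna1g was at -0.021, Cacna1i at -0.011, Cacna2d3 at 0.041, Cacng2 at -0.048, Scn1a at -0.035, Scn9a at -0.068, Scn10a at -0.012 and Hcn2 at -0.012. With the striatal and cortical scores Cacna1a was at 0.0010, Scn3a at 0.0074 and Scn4b at -0.11. Without the 3 least correlated arrays Scn10a was at -0.00040 and Hcn3 at 0.0074, and with the mean of all probe sets Cacna1a was at 0.10. Without single animals Cacna2d3 ran from -0.052 to 0.063, Scn10a from -0.0076 to 0.021, Scn3a from -0.060 to 0.0049, Cacna1a from -0.072 to 0.0018 and Hcn3 from -0.045 to 0.019. No paired analysis was possible because no animal number occurs in both groups. No detection calls were used, so whether the 16 genes under the 40th percentile were above background was not tested.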

Other observations

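With the striatal and cortical marker scores in the model, Cacna1g, Cacna2d1 and Cacng2 had a limma p under 0.05. They were among 10 channel genes with such a p in that fit, all higher. Over all probe sets 11.3% had one, 6.70% with a higher value. Cacna1g, a T-type channel, was at 0.24 (SE 0.065, limma p = 0.00123) against 0.11 (SE 0.11) without the scores. Cacna2d1, an alpha2delta subunit, was at 0.16 (SE 0.060, limma p = 0.0142), and the TARP Cacng2 at 0.22 (SE 0.092, limma p = 0.0293). None of the 3 passed the adjusted threshold in that fit. For Cacna1g and Cacng2 the difference with the pan-neuronal score was -0.021 and -0.048, so the sign depended on which scores were used.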
